A study of Saccharomyces cerevisiae BY4741 with 9 samples.

Results

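The 7 genes described here encode the enzymes that make and break down trehalose in budding yeast: TPS1, TPS2, TPS3 and TSL1 for synthesis, and NTH1, NTH2 and ATH1 for breakdown. They were chosen by name, with earlier results of these data known. All 7 were found, each as a single row, among the 7130 features of the deposited RPKM table (reads per kilobase of feature length, scaled to 1000000 reads in a library). RNA was sequenced from scc2-4 cells, which carry a mutant allele of the cohesin loader gene SCC2, and from wild type (WT) cells, both of the haploid BY4741 strain. Cultures of both genotypes grew in rich YPD medium with a complete amino acid supplement and were harvested while growing exponentially, at an optical density of 0.7; no temperature is named. The table holds 3 libraries of each genotype, which the series' design calls biological replicates. All scc2-4 libraries were ribo-depleted, whereas the labels give both a ribo-depleted and a total RNA library for each WT replicate, and the WT columns do not name the preparation. If the WT columns hold total RNA libraries, preparation and genotype cannot be told apart in any comparison below.

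Trehalose is a sugar built from glucose that yeast stores as a reserve and uses to protect proteins and membranes under stress. Tps1 joins UDP-glucose to glucose 6-phosphate to give trehalose 6-phosphate, Tps2 removes the phosphate, and Tps3 and Tsl1 are large regulatory subunits of the same complex. Nth1 is the main neutral trehalase of the cytosol, Nth2 is its paralog, and Ath1 is the acid trehalase that lets cells use trehalose from outside. Synthesis genes are known to be induced by heat, by other stresses and as glucose runs out, through the factors Msn2 and Msn4, which bind stress response elements, and through Hsf1, which binds heat shock elements.

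Each library held 14730000 to 21930000 reads assigned to features, and the members held between 314 reads (ATH1 in scc2-4 replicate 3) and 15944 reads (TPS1 in WT replicate 1) in a library. WT replicate 1 stood apart, with a correlation across features of 0.977 and 0.968 with the other WT libraries on the log2 scale, against 0.993 between those and 0.990 to 0.993 among scc2-4 libraries. Between genotypes, WT replicates 2 and 3 correlated at 0.957 to 0.973 with the scc2-4 libraries, and WT replicate 1 at 0.904 to 0.926. WT replicate 3 was thus closer to scc2-4 replicate 1 (0.9725) than to WT replicate 1 (0.9684). The strain label was checked against marker genes. The 4 genes expressed in MATa cells ranged from 84.8 to 749 RPKM and the 4 of MATalpha cells from 0.09 to 10.5 RPKM over all 6 libraries. LEU2 and MET17, which are deleted in BY4741, were listed at 0 throughout, and URA3 at 0 in all but scc2-4 replicate 2, at 0.06 RPKM. HIS3, of which the strain keeps a part, read 38.7 to 55.3 RPKM.

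The members lie on chromosomes II, IV, XIII and XVI. No other feature of the table overlaps any of them, and no stretch of 36 bases of any of them occurs a second time in the R64 genome. This includes the paralogous pairs TPS3 and TSL1, and NTH1 and NTH2, so exact matches of that length do not confuse them; the sources used here do not state the read length.

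Sequence before the genes is shown for the 3 members with the largest falls, TSL1, TPS2 and TPS1, and for NTH2, which has no stress response element in the searched sequence. The windows of TSL1, TPS1 and NTH2 run from 250 bases before to 50 bases after the first coding base, on the coding strand, from the RefSeq R64 assembly, the build of the authors' sacCer3 coordinates. The stretch of TPS2 runs from 500 to 251 bases before its first coding base, because its nearer window held no match. Capitals mark matches to the stress response element AGGGG on either strand, so that CCCCT is the same element on the other strand.
TSL1 (chrXIII:70374-70673, plus strand): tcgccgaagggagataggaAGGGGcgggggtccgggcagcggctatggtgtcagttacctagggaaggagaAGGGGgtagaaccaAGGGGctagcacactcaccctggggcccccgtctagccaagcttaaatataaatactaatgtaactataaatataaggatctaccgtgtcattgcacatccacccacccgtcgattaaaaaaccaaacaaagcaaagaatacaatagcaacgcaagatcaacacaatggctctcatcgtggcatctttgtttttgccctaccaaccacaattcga
TPS2 (chrIV:593393-593642, plus strand): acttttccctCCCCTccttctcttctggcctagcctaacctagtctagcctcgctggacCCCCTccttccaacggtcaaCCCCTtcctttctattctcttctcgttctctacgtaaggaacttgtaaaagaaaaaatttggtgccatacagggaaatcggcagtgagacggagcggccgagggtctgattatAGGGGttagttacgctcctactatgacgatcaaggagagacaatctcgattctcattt
TPS1 (chrII:490343-490642, minus strand): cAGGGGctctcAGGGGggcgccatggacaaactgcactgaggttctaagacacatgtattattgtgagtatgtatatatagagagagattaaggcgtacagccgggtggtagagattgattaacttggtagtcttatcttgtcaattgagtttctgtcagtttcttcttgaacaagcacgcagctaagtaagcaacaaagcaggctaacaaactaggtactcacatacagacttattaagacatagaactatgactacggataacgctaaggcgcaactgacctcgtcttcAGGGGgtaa
NTH2 (chrII:241234-241533, minus strand): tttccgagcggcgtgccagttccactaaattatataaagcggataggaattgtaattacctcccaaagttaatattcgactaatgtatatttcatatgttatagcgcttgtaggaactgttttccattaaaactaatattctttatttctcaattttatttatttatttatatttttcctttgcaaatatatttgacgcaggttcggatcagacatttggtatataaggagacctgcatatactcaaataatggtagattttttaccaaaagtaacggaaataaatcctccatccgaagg

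In these windows TPS1, TPS3 and TSL1 each held 3 stress response elements, NTH1 held 1, and TPS2, NTH2 and ATH1 held none. Over the 5980 protein-coding genes with the same coordinates in table and annotation, 21.7% of such windows held at least 1 and 0.485% held at least 3. In TPS1 and TPS3 the last match lies inside the coding sequence, at bases 42 and 38. With the window extended to 500 bases before the start, which was chosen after seeing the data, TPS1 held 7, TSL1 5, TPS2 4, TPS3 3, NTH1 3, ATH1 1 and NTH2 none, and 36.4% of 5979 windows held at least 1 and 2.16% at least 3. The match of TPS1 at 472 bases and those of TSL1 at 326 and 378 bases before the start lie within the annotated features YBR126W-A and YML100W-A. The heat shock element, searched as GAANNTTC, which reads the same on both strands, was found 2 times before TSL1, 2 times before ATH1 and 1 time before NTH2 in the longer window, where 20.8% of all windows held it. Both of those before TSL1, at 354 and 426 bases, also lie within YML100W-A. In the shorter window it was found before ATH1 alone among the members, at 20 bases before the start, with 11.8% of all windows holding it. Matches are a description of the letters only, and a relation to the falls was not tested. The sequences shown were picked by the fall or by the matches. TPS3 is not among them, with 3 matches in the shorter window and a log2 change of -0.92. NTH2, which had no match, had a log2 change of -1.10.

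**Figure D1:**
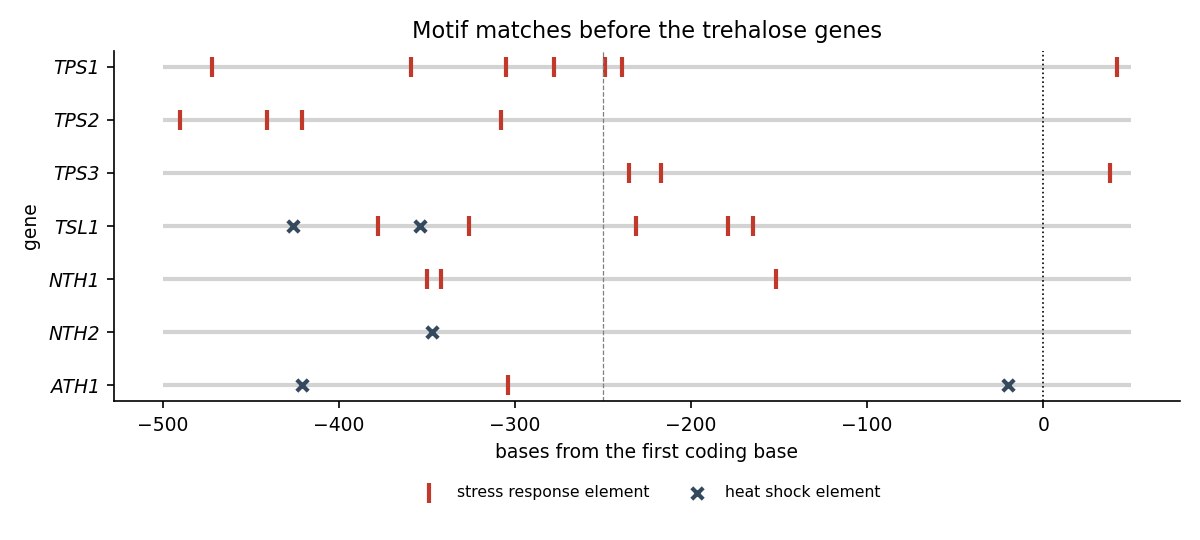
Positions of stress response elements (red bars) and heat shock elements (dark crosses) along each gene, in bases from the first coding base (dotted line), in the window from 500 bases before to 50 after; the dashed line marks 250 bases before. TPS1 has 7 stress response elements and NTH2 none.

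The question put to these genes is whether their transcripts were more or less abundant in scc2-4 than in WT. All 7 genes of trehalose metabolism had lower levels in scc2-4, and every scc2-4 library lay below every WT library for each of them. Of the 7, 6 fell at an adjusted p under 0.05 in limma (Benjamini-Hochberg over 6559 features), and ATH1 did not pass. Among all features tested, 15.0% were called lower and 17.5% higher, and 23.6% had all scc2-4 libraries below all WT libraries. The members' median log2 change was -1.10, against 0.047 over all features. The 4 synthesis genes, all called lower, had changes from -2.02 to -0.92, and the 3 breakdown genes from -1.10 to -0.72 with 2 called. In RNA from a whole culture, a lower level in every cell and fewer cells with a high level cannot be told apart.

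TPS1 (YBR126C, sacCer3 chromosome II, 488905 to 490392, minus strand), the trehalose-6-phosphate synthase gene, had 206, 179 and 160 RPKM in scc2-4 replicates 1, 2 and 3, against 728, 455 and 365 RPKM in WT replicates 1, 2 and 3. The highest scc2-4 library was well below the lowest WT library, and WT replicate 1 was the highest of the 6. TPS1 averaged 182 ± 23.4 RPKM in scc2-4 and 516 ± 189 RPKM in WT (SD, n = 3 each) and fell 2.71-fold on the log2(RPKM + 1) scale (log2 change -1.44, SE 0.22, adjusted p = 0.00603, limma). It was the most abundant member in every library of both genotypes.

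TPS2 (YDR074W, chromosome IV, 593893 to 596583, plus strand), the phosphatase gene, had 55.6, 63.8 and 48.6 RPKM in scc2-4, against 309, 167 and 150 RPKM in WT. The groups were far apart, with WT replicate 1 again the highest. It averaged 56.0 ± 7.58 RPKM in scc2-4 and 209 ± 86.9 RPKM in WT (SD, n = 3 each) and fell 3.48-fold (log2 change -1.80, SE 0.24, adjusted p = 0.0038, limma), the smallest p of the members.

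TSL1 (YML100W, chromosome XIII, 70624 to 73920, plus strand), a regulatory subunit gene, had 44.0, 43.2 and 28.2 RPKM in scc2-4, against 296, 124 and 106 RPKM in WT. The scc2-4 libraries did not reach the WT range, and the WT libraries were the most spread of any member, since WT replicate 1 held 2.58 times the mean of the other WT libraries. It averaged 38.5 ± 8.89 RPKM in scc2-4 and 175 ± 105 RPKM in WT (SD, n = 3 each). Its fall of 4.06-fold was the largest among the members (log2 change -2.02, SE 0.353, adjusted p = 0.00869, limma) and ranked 45 from the lowest among the changes of the 6559 features.

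TPS3 (YMR261C, chromosome XIII, 790205 to 793369, minus strand), the other regulatory subunit gene, had 48.1, 56.3 and 46.6 RPKM in scc2-4, against 132, 86.3 and 79.6 RPKM in WT. The groups did not overlap but lay closer than for TSL1. It averaged 50.3 ± 5.24 RPKM in scc2-4 and 99.2 ± 28.2 RPKM in WT (SD, n = 3 each) and fell 1.90-fold, the smallest fall among the synthesis genes (log2 change -0.92, SE 0.17, adjusted p = 0.0102, limma).

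NTH1 (YDR001C, chromosome IV, 450220 to 452475, minus strand), the main neutral trehalase gene, had 41.9, 38.7 and 35.2 RPKM in scc2-4, against 131, 72.4 and 60.4 RPKM in WT. The scc2-4 libraries were tightly grouped below all WT libraries. It averaged 38.6 ± 3.35 RPKM in scc2-4 and 88.0 ± 37.9 RPKM in WT (SD, n = 3 each) and fell 2.11-fold (log2 change -1.08, SE 0.237, adjusted p = 0.0168, limma). This call was lost whichever of scc2-4 replicates 1, 2 and 3 was left out, at adjusted p = 0.0506, 0.0621 and 0.0666, with a range of 5.7e-05 to 0.0666 over all alternatives. Its log2 change in those fits was -1.125, -1.082 and -1.032. They called 1039, 781 and 766 features in all, against 2133 with every library.

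NTH2 (YBR001C, chromosome II, 238941 to 241283, minus strand), the paralog of NTH1, had 16.9, 15.9 and 13.6 RPKM in scc2-4, against 49.9, 30.5 and 26.7 RPKM in WT. The groups were separate, in the same order of libraries as for NTH1. It averaged 15.5 ± 1.70 RPKM in scc2-4 and 35.7 ± 12.4 RPKM in WT (SD, n = 3 each) and fell 2.15-fold (log2 change -1.10, SE 0.193, adjusted p = 0.00878, limma).

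ATH1 (YPR026W, chromosome XVI, 615379 to 619014, plus strand), the acid trehalase gene, had 7.32, 7.43 and 5.79 RPKM in scc2-4, against 19.7, 9.87 and 8.61 RPKM in WT. The groups did not overlap, but the gap between scc2-4 replicate 2 and WT replicate 3 was small and WT replicate 1 lay far above the rest. It averaged 6.85 ± 0.917 RPKM in scc2-4 and 12.7 ± 6.08 RPKM in WT (SD, n = 3 each). Its log2 change of -0.72 (95% interval -1.31 to -0.12) did not pass after adjustment (adjusted p = 0.0648, limma). It passed without WT replicate 1 (log2 change -0.42, adjusted p = 0.0400) and without WT replicate 3 (-0.91, adjusted p = 0.0326), and its adjusted p ranged from 0.00342 to 0.182 over the alternatives.

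**Figure D2:**
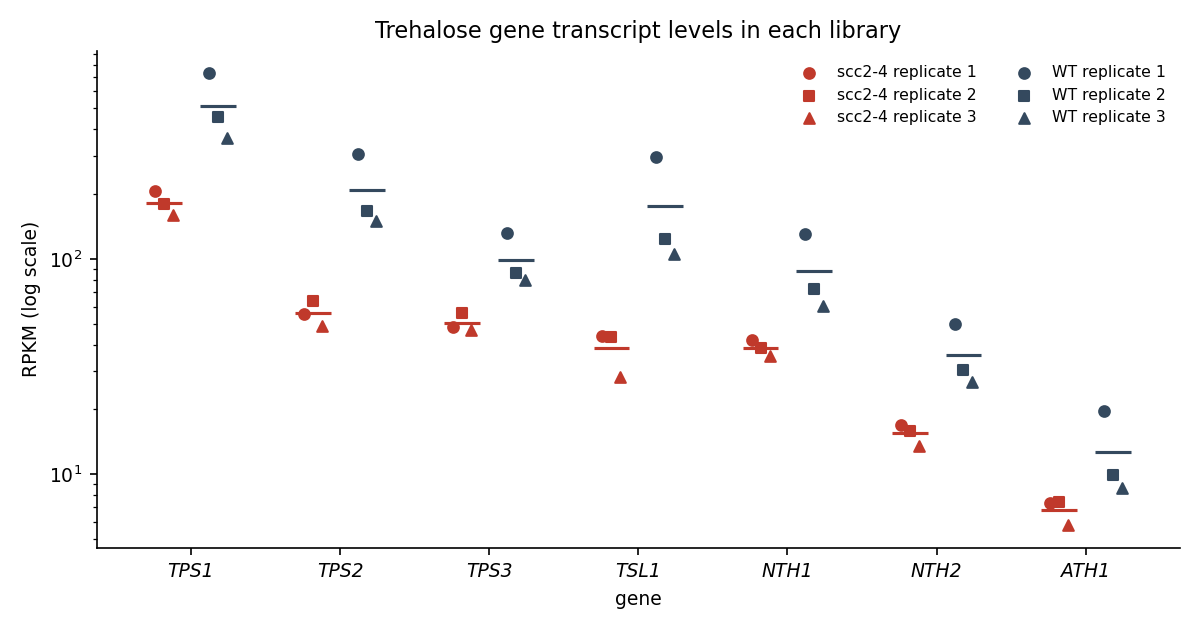
RPKM (log scale) of the 7 genes in each of 3 scc2-4 libraries (red, left) and 3 WT libraries (dark, right); markers give the replicate and bars the group mean. TPS1 is the highest gene and ATH1 the lowest in both genotypes, and WT replicate 1 is the highest library for every gene.

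By RPKM as deposited, replicate 3 was the lowest library for every member in both genotypes, and in WT the whole order was shared. WT replicate 1 was the highest, replicate 2 next and replicate 3 the lowest for 7 of 7 members, an order found in 38.6% of all features tested. Among the mutant libraries, scc2-4 replicate 3 was the lowest for 7 of 7 members, against 42.4% of features, while replicates 1 and 2 changed places between members. On the centred log2 scale of the fits, TPS3 was lowest in scc2-4 replicate 1, at -0.549 from its own mean against -0.54 in replicate 3. Relative to each gene's own mean over the 6 libraries, the mean of the members stood at -0.58, -0.55 and -0.82 on the log2 scale in scc2-4 replicates 1, 2 and 3, and at 1.19, 0.47 and 0.28 in WT replicates 1, 2 and 3. WT replicate 1 held 1.59 times (TPS3) to 2.58 times (TSL1) the mean of the other WT libraries. Without it all 7 members were called lower, where 16.5% of 6557 features were. The folds then were 3.05 for TSL1, 2.87 for TPS2, 2.295 for TPS1, 1.84 for NTH2, 1.73 for NTH1, 1.68 for TPS3 and 1.34 for ATH1. The members' median log2 change became -0.88.

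**Figure D3:**
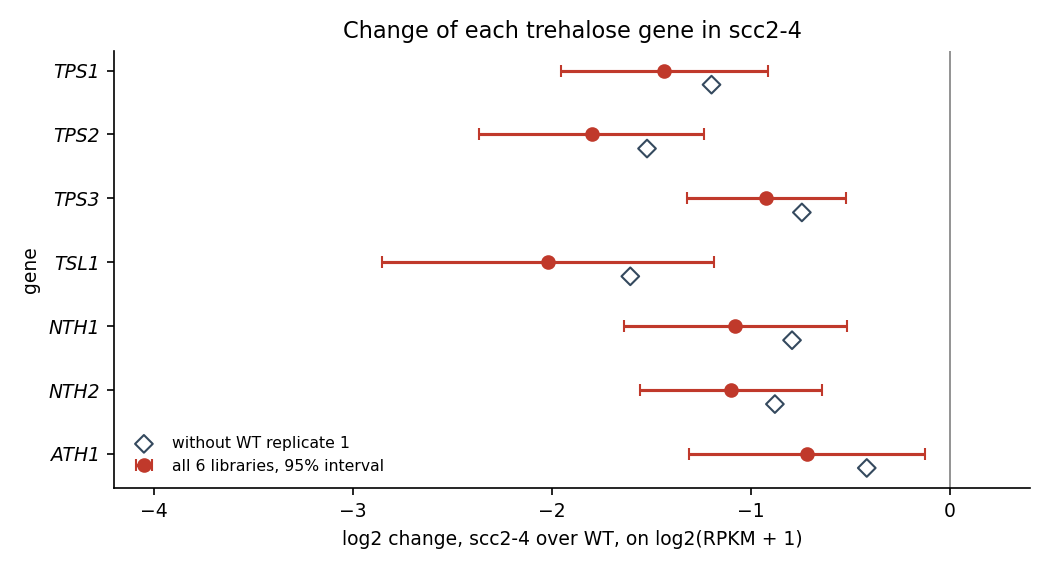
Fitted log2 change of each gene in scc2-4 over WT on the log2(RPKM + 1) scale, with all 6 libraries (red points, 95% interval) and without WT replicate 1 (open diamonds). All points lie below 0, and those without WT replicate 1 lie nearer to 0.

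Levels per length kept partly the same order in both genotypes. In scc2-4 the order by mean RPKM was TPS1 (182), TPS2 (56.0), TPS3 (50.3), NTH1 (38.6), TSL1 (38.5), NTH2 (15.5) and ATH1 (6.85). In WT it was TPS1 (516), TPS2 (209), TSL1 (175), TPS3 (99.2), NTH1 (88.0), NTH2 (35.7) and ATH1 (12.7). The neighbours TPS2 and TPS3, and NTH1 and TSL1, overlapped in their ranges over the scc2-4 libraries, as did TPS2 and TSL1, TSL1 and TPS3, and TPS3 and NTH1 over the WT libraries. TSL1 stood above TPS3 in each of the 3 WT libraries. In scc2-4 its mean was close to that of NTH1, which was the higher in 1 of the 3 libraries.

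The ratio of TSL1 to TPS3, the alternative regulatory subunits, was 0.915, 0.767 and 0.606 in scc2-4, against 2.25, 1.44 and 1.33 in WT. TPS3 had the higher RPKM in all 3 scc2-4 libraries and TSL1 in all 3 WT libraries. The log2 ratio differed by -1.11, and by -0.88 without WT replicate 1 (exact permutation test, two-sided, p = 0.1, adjusted over 3 ratios p = 0.15). With 3 libraries against 3 the smallest p that this test can give is 0.1.

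The ratio of TPS2 to TPS1, the catalytic subunits, was 0.270, 0.356 and 0.304 in scc2-4, against 0.424, 0.368 and 0.411 in WT. The groups did not overlap, although scc2-4 replicate 2 came close to WT replicate 2. The log2 difference was -0.38 (exact permutation test, two-sided, p = 0.1, adjusted p = 0.15 over the 3 ratios).

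The ratio of NTH1 to NTH2 was 2.48, 2.43 and 2.59 in scc2-4, against 2.63, 2.37 and 2.26 in WT. These ranges overlapped, and the log2 difference was 0.051 (exact permutation test, two-sided, p = 0.5, adjusted p = 0.5 over the 3 ratios). The ratio averaged 2.50 ± 0.0823 in scc2-4 and 2.42 ± 0.19 in WT (SD, n = 3 each), while both genes fell.

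Within the synthase complex, shares of the 4 subunits' summed RPKM differed for 3 of the genes. TSL1 made up 12.4%, 12.6% and 9.97% in scc2-4, against 20.2%, 14.9% and 15.1% in WT. TPS3 made up 13.6%, 16.4% and 16.4% in scc2-4, against 8.99%, 10.4% and 11.4% in WT. TPS2 made up 15.7%, 18.6% and 17.2% in scc2-4, against 21.1%, 20.1% and 21.4% in WT. The groups did not overlap for any of these, with the TSL1 and TPS2 shares lower and the TPS3 share higher in scc2-4. TPS1 held 55.7% ± 3.04 in scc2-4 and 52.2% ± 2.44 in WT (SD, n = 3 each), with overlapping ranges. These are shares of transcript level per length, with no test of their own. They are tied to each other, since a higher share of any subunit lowers the rest.

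**Figure D4:**
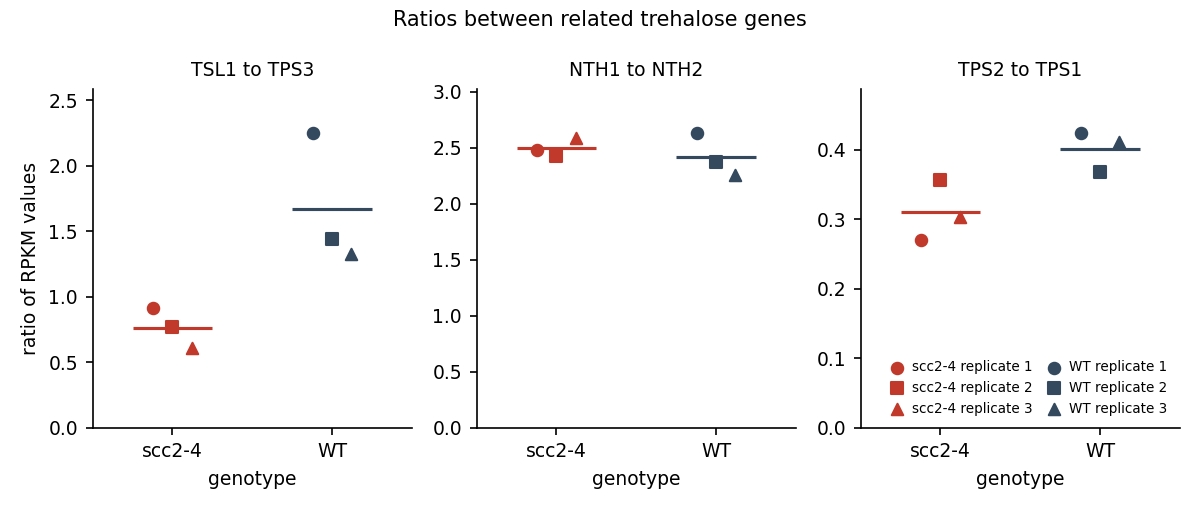
Ratios of RPKM values between related genes in each scc2-4 (red, left) and WT (dark, right) library, with the group mean as a bar; each axis starts at 0. The TSL1 to TPS3 ratio is below 1 in all scc2-4 libraries and above 1 in all WT libraries, while the NTH1 to NTH2 ratios overlap.

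The genes that supply the substrates of Tps1 were lower as well, with 1 exception. Of 6 genes from glucose to UDP-glucose, 5 fell and 1 rose, where 15.0% of all features were called lower and 17.5% higher. Their median log2 change was -2.05. PGM2, the major phosphoglucomutase gene, had 104, 73.1 and 51.9 RPKM in scc2-4, against 1246, 546 and 403 RPKM in WT, so the groups were wide apart. It fell 8.69-fold (adjusted p = 0.00357, limma), and 6.46-fold without WT replicate 1. GLK1, a glucokinase gene that overlaps YCL042W, fell 5.62-fold to 233 ± 50.02 RPKM in scc2-4, against 1398 ± 669 RPKM in WT (SD, n = 3 each; adjusted p = 0.00311, limma). HXK1, a hexokinase gene that overlaps YFR052C-A, had 218, 171 and 93.6 RPKM in scc2-4, against 2557, 850.02 and 693 RPKM in WT, where replicate 1 stood far above the others. It fell 7.46-fold (adjusted p = 0.00809, limma), and 5.14-fold without WT replicate 1. Without that library the fall of GLK1 was 4.49-fold. UGP1, which makes UDP-glucose and overlaps YKL036C, and HXK2, the hexokinase gene of cells on glucose, also fell, with log2 changes of -1.60 and -0.61. PGM1, the minor phosphoglucomutase gene, rose, at 108 ± 4.03 RPKM in scc2-4 and 79.4 ± 7.54 RPKM in WT (log2 change 0.45, adjusted p = 0.0338, limma). Its call ended without any single scc2-4 replicate (adjusted p = 0.0922 to 0.112) or without WT replicate 2 (0.0598), within a range of 0.000821 to 0.112 over the alternatives, and its value was singled out after it was seen.

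Of 4 regulators of neutral trehalase, 2 fell and 2 did not pass, where 15.0% of all features were called lower. Their median log2 change was -0.52. DCS1 encodes the scavenger decapping enzyme, also known as an inhibitor of Nth1, and DCS2 its paralog. DCS2 had 18.1, 12.9 and 9.97 RPKM in scc2-4, against 144, 49.4 and 34.0 RPKM in WT, and fell 4.41-fold (adjusted p = 0.0163, limma). DCS1, which overlaps YLR269C, had 61.8, 52.4 and 47.9 RPKM in scc2-4, against 160, 94.2 and 78.7 RPKM in WT, and fell 1.94-fold (adjusted p = 0.0201, limma). Neither group overlapped, with WT replicate 1 the highest for both. Without that library the falls were 3-fold for DCS2 and 1.63-fold for DCS1. Both calls ended without scc2-4 replicate 2 (adjusted p = 0.0612 for DCS2 and 0.0718 for DCS1) and without scc2-4 replicate 3 (0.0655 and 0.0767), against lowest values of 6.1e-05 and 0.000112 over the alternatives. BMH1 and BMH2, whose proteins bind phosphorylated Nth1 and activate it, had log2 changes of -0.089 and 0.098 with overlapping groups.

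Of 4 transporter genes of trehalose and maltose, the 2 that passed the minimum level both fell, with log2 changes of -2.42 and -1.82. A lower call was given to 15.0% of all features. MAL31, a maltose permease gene, had 21.2, 18.8 and 16.8 RPKM in scc2-4, against 148, 96.8 and 82.6 RPKM in WT, and fell 5.34-fold (adjusted p = 0.0015, limma). MAL11, a permease gene that overlaps YGR290W and whose protein also carries trehalose, had 14.2, 12.7 and 10.9 RPKM in scc2-4, against 66.9, 42.8 and 36.2 RPKM in WT, and fell 3.52-fold (adjusted p = 0.00227, limma). Both groups were clearly separate. MPH2 and MPH3, near-identical transporter genes, ranged from 0.06 to 0.44 RPKM over the libraries and were not tested.

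Of 5 genes for stress transcription factors and the kinase Rim15, 2 fell and 3 did not pass, against 15.0% of all features called lower. Their median log2 change was -0.083. MSN4, a stress response element factor, had 11.6, 13.7 and 12.4 RPKM in scc2-4, against 34.1, 21.4 and 22.6 RPKM in WT, and fell 1.94-fold (adjusted p = 0.00717, limma). GIS1, a factor of post-diauxic genes, had 8.87, 10.9 and 7.29 RPKM in scc2-4, against 27.97, 15.24 and 16.97 RPKM in WT, and fell 2.04-fold (adjusted p = 0.0141, limma). The groups were separate for both, and the call on GIS1 was lost when scc2-4 replicate 1 or 3 was left out (adjusted p = 0.0502 and 0.0572, range 0.00101 to 0.0572). MSN2, the partner of MSN4, had 14.2, 15.8 and 15.1 RPKM in scc2-4, against 14.8, 13.7 and 13.6 RPKM in WT, and its log2 change of 0.10 did not pass (adjusted p = 0.386, limma). HSF1, which overlaps YGL072C and YGL074C, and RIM15 had log2 changes of -0.083 and 0.0026.

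The protein kinase A pathway, which restrains stress genes when glucose is plentiful and whose kinase activates Nth1, had 11 genes reported, of which 5 fell, 1 rose and 5 missed the threshold, at a median log2 change of -0.027. Over all features 15.0% were called lower and 17.5% higher. TPK2, a catalytic subunit gene, had 39.8, 36.2 and 31.2 RPKM in scc2-4, against 163, 100 and 88.8 RPKM in WT, and fell 3.10-fold (adjusted p = 0.00315, limma). RAS2, an upstream GTPase gene, fell 2.36-fold to 103 ± 14.3 RPKM in scc2-4, against 249.2 ± 61.48 RPKM in WT (SD, n = 3 each; adjusted p = 0.0036, limma). CYR1, the adenylate cyclase gene, had 24.8, 26.7 and 25.8 RPKM in scc2-4, against 44.5, 35.1 and 33.3 RPKM in WT, and fell 1.42-fold (adjusted p = 0.0139, limma). The groups were separate for each of these. TPK3, another catalytic subunit gene, went the other way, with 17.2, 17.7 and 18.4 RPKM in scc2-4, against 7.21, 11.1 and 12.6 RPKM in WT. Its log2 change of 0.77 (adjusted p = 0.0333, limma), singled out after it was seen, no longer passed without any single scc2-4 replicate (adjusted p = 0.0797 to 0.107) or without WT replicate 2 (0.0580), within a range of 0.000318 to 0.107. PDE1 and IRA2 fell with log2 changes of -0.57 and -0.36. CYR1, PDE1 and IRA2 each lost the call when at least 1 of the scc2-4 replicates was left out, IRA2 also without WT replicate 2 or 3, without centring and with the replicate block (adjusted p up to 0.0538, 0.088 and 0.118, against lowest values of 0.000214, 0.000528 and 0.0126).

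**Figure D5:**
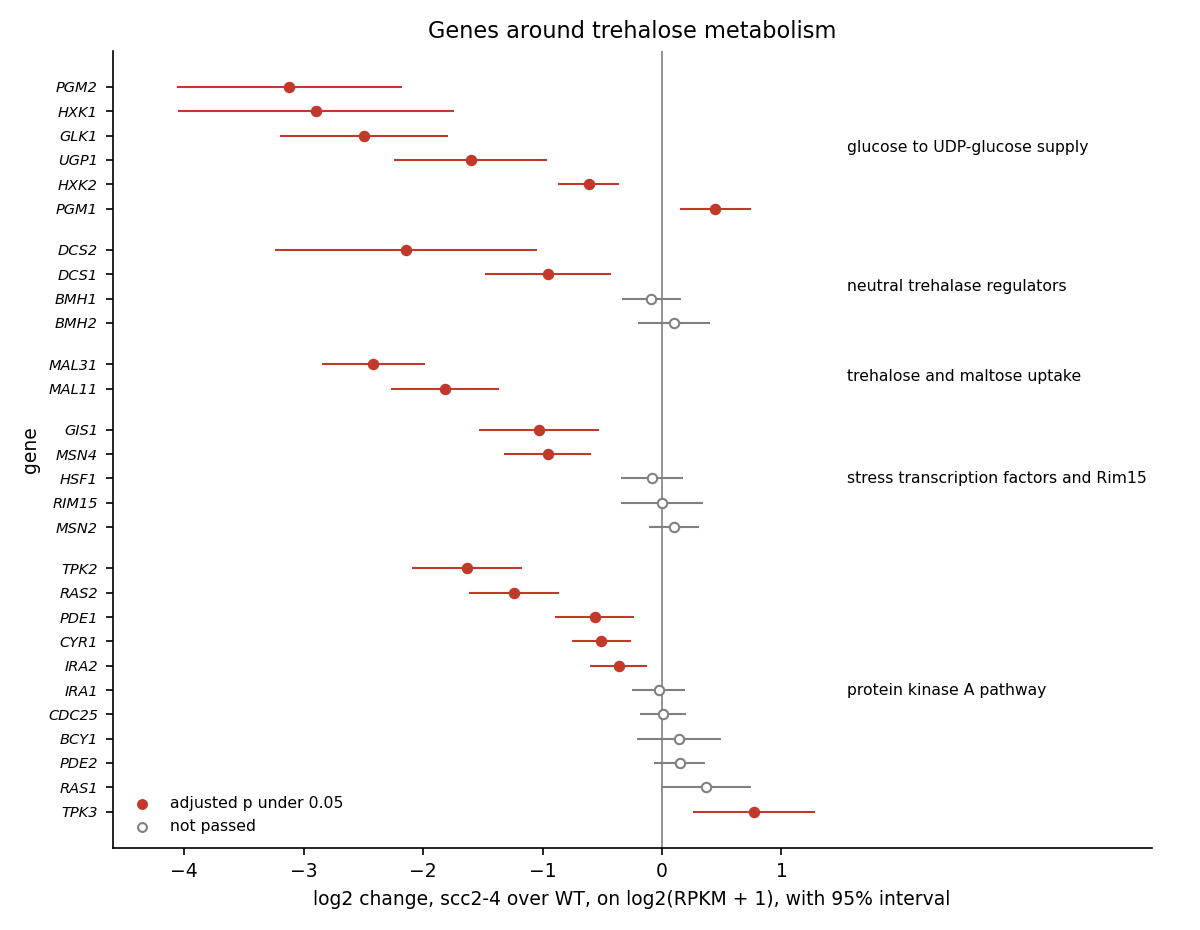
Fitted log2 change in scc2-4 over WT, with 95% interval, for the 28 tested genes reported of 5 lists around trehalose metabolism; filled red points passed an adjusted p of 0.05 and open grey points did not. Of the 28, 16 fell and 2 rose, PGM1 and TPK3, where 15.0% of all features were called lower and 17.5% higher.

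The features whose pattern over the 6 libraries was most like the mean of the members were YDC1, CAT8, ENO1, ACH1 and YDR379C-A. Likeness was the mean absolute difference between log2 deviations from each feature's own mean, and features that overlap another were left out. It was 0.028 for YDC1, an alkaline ceramidase gene, and 0.043 for CAT8, a factor gene of growth on non-fermentable carbon. It was 0.049 for ENO1, an enolase gene, 0.050 for ACH1, a mitochondrial CoA transferase gene, and 0.052 for YDR379C-A. Among the members themselves this difference from their mean was 0.078 for TPS1, 0.098 for NTH2 and 0.109 for NTH1, and reached 0.361 for TSL1. YDC1 had 64.3, 61.7 and 51.1 RPKM in scc2-4, against 227, 132 and 106 RPKM in WT, the same order of WT libraries as the members. The named features were picked for small differences over these same libraries, so small values and a shared order are favoured by the choice. Pairs of members had a Pearson correlation of 0.918 (ATH1 with TPS2) to 0.998 (NTH2 with TSL1) over the 6 libraries, which share the genotype difference and the high WT replicate 1.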

How the data were processed

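RNA was sequenced with an Illumina TruSeq kit, per the labels' protocols. Reads were aligned with Bowtie to sacCer3, per the submitters' processing notes; the sources used here name no aligner version, counting tool or use of strand. The authors deposited RPKM values for 7130 features. RPKM times feature span summed to 1000000 in each library. The reads per library were taken as the number that brought low values closest to whole reads. With it, at least 99.8% of the 848 to 1173 values checked in each library lay within 0.1 of a whole read. These were values of short features worth up to 100 reads. No member was among them, so the members' reads follow from that number alone. Of the identifiers, 6048 were found in the R64 annotation, 99.8% with the same start and end, among them all 7 members.

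Values were taken as log2(RPKM + 1), centred on each library's median feature, and kept at a mean RPKM of at least 1 (6559 features). This scale understates changes of low genes. Genotypes were compared with limma 3.58.1 (R 4.3.3, empirical Bayes with trend, Benjamini-Hochberg over all features, threshold 0.05). The fit was tried on simulated data with the same independent noise in every feature and library. Such data hold no outlying library like WT replicate 1, and no result given here rests on that trial. Python 3.11.15 served for the rest. Depth limits precision little here, and p-values rest on 3 libraries a group. Ratios used exact permutation tests. Named were all members, pathway genes past the threshold (up to 3 a list in full), and the 5 features most like the members. An item of the lists is not reported here. The members and lists were chosen with earlier results of these data known. The alternatives were other pseudocounts, filters, centrings, weights, a replicate block and leaving out each library.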

Additional observations from a re-analysis of the deposited data

How the results depend on the processing

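All 7 members kept their direction under each of the 15 alternatives of the fit, and TPS1, TPS2, TPS3, TSL1 and NTH2 also kept their calls. NTH1 lost its call without any single scc2-4 replicate, and ATH1 gained one under library weights (adjusted p = 0.00342), with the replicate block (adjusted p = 0.0368) and without WT replicate 1 or 3. The count of features called was 2133, 3992 with library weights and 766 to 2442 when a library was left out; the count of pathway genes was 18 (16 lower and 2 higher), 22 with library weights (16 lower and 6 higher) and 10 to 18 when a library was left out, with none higher without any single scc2-4 replicate or without WT replicate 2. The weights' estimation stopped before it converged and gave WT replicate 2 a weight of 13.2. With the replicate block 2341 features were called, all 7 members among them. Deviations of same-numbered libraries correlated at 0.305, -0.0622 and 0.353. For scc2-4 replicates 1 and 3 these were the highest correlations with any WT library. By contrast, scc2-4 replicate 2 correlated best with WT replicate 1 (0.132). Pairing by number was thus not settled, and the numbers were not taken as pairs. The 3 ratios kept their direction under every alternative run; TSL1 to TPS3 ranged from -1.26 to -0.876, TPS2 to TPS1 from -0.482 to -0.282 and NTH1 to NTH2 from 0.0025 to 0.112 (log2 difference) when a library was left out. Depth was no limit for the members, the lowest having 314 reads, while 3 libraries a group and the distance of WT replicate 1 from the others limit how closely the sizes of the falls are known.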
